A study of Mus musculus with 30 samples.

Results

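The BCL2 family was followed through an ATAC-seq atlas of mouse natural killer (NK) cells, in which a transposase tags open DNA. Every peak that the deposited table assigns to Bcl2, Bcl2l1, Bcl2l11, Mcl1, Bax, Bbc3, Pmaip1, Bcl2a1b or Bcl2a1d was taken, which gave 46 of 38526 peaks for 9 genes. Bcl2 held 20 of them, Bcl2l1 and Bcl2l11 5 each, Mcl1 4, Bbc3, Pmaip1 and Bcl2a1d 3 each, Bcl2a1b 2 and Bax 1. Introns held 25 of the 46 peaks (54.3%), against 33% of all peaks. NK cells from spleen were cultured in low IL-2 plus IL15:IL15Ra over 5 days. Wild-type cells (WT) came from C57BL/6J mice, and knockout cells (KO) from mice of genotype GzmbCre Ptger2-/- Ptger4 fl/fl. The KO lacks the prostaglandin E2 (PGE2) receptor EP2 and, where Cre has acted, EP4. GzmbCre expresses the recombinase from granzyme B regulatory sequence, and the WT mice did not carry it, so receptor loss and Cre cannot be told apart. In each genotype, cells stayed untreated or received 100 ng/ml PGE2 for 5 h in all. They were kept at rest, or were stimulated through the activating receptor NK1.1 over the final 4 h, after 1 h of treatment. These 8 groups held 4 libraries each, except resting WT with PGE2 and untreated resting KO, which held replicates 2 to 4. No label ties a replicate to its own animal or culture. P-values therefore measure only the spread between these libraries, which may be technical.

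BCL2 family proteins control whether the outer mitochondrial membrane is breached in apoptosis. The survival members BCL2, BCL-XL (Bcl2l1), MCL1 and A1 (the Bcl2a1 copies) hold back effectors such as BAX, and the BH3-only members BIM (Bcl2l11), PUMA (Bbc3) and NOXA (Pmaip1) oppose the survival members. In NK cells, cytokine signals through IL-15 are known to sustain BCL2 and MCL1 and to restrain BIM. PGE2 signals through EP2 and EP4 to raise cAMP. The measurement here is accessibility near a gene, as a normalised read count per peak (reads divided by 1 size factor per library), and not the gene's expression. In bulk cells, fewer cells with an open site and less opening per cell cannot be told apart.

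Libraries held 8444350 to 20153816 reads in peaks. The targeted genes separated the genotypes: the Ptger2 promoter peak measured 560 to 1109 in 15 WT and 83.6 to 247 in 15 KO libraries, and a Ptger4 exon peak 434 to 685 and 56.2 to 152. Promoter peaks were listed for all 9 NK markers checked (Ncr1, Klrb1c, Klrk1, Eomes, Tbx21, Gzma, Prf1, Nkg7 and Il2rb). The table lists no peak for Cd3g, Cd4, Cd8a, Cd8b1, Ms4a1, Cd79a, Cd79b, Lyz2, Mpo, Elane, Hbb-bs, Hba-a1, Gata1 or Slc4a1. Replicate 2 of untreated resting KO stood apart on the fifth principal component (51.7, the others −14.9 to 9.16), which held 1.5% of the variance. Counts that use this library are given without it where they moved. KO libraries also split on the third component (4.1% of the variance), at −8.16 to 4.91 for replicates 1 and 2 and 16.6 to 35.2 for replicates 3 and 4. In stimulated KO, replicates 1 and 2 also held fewer reads in peaks (8444350 to 9963815, against 14611688 to 20153816). Untreated resting KO lacks replicate 1, so its comparisons are unbalanced in this split, whose part was not tested.

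Promoter sequence is shown for 5 of the genes because their promoters behaved differently under stimulation: those of Bcl2a1d, Bcl2l1 and Mcl1 rose, that of Bcl2l11 did not pass the test, and Bcl2a1b is a near copy of Bcl2a1d. Each run is the 250 bases before a listed start from RefSeq (GRCm38.p6), read 5′ to 3′ on the gene's strand. Capitals mark matches on either strand to the CRE half-site TGACG, to the AP-1 motif TGANTCA, or to NF-kB. The windows are Bcl2a1d (chr9:88731851-88732100, minus strand), Bcl2a1b (chr9:89199023-89199272, plus strand), Bcl2l1 (chr2:152830718-152830967, minus strand), Mcl1 (chr3:95658471-95658720, plus strand) and Bcl2l11 (chr2:128125788-128126037, plus strand).
Bcl2a1d: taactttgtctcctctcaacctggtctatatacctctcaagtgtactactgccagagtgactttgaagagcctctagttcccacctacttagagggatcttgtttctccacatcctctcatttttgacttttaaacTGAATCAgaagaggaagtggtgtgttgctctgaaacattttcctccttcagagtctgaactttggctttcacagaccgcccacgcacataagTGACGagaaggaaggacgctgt
Bcl2a1b: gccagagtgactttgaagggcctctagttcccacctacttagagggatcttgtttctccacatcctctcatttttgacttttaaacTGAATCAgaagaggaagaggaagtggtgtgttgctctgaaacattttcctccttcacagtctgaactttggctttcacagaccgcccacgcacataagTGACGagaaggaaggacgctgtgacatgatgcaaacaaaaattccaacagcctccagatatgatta
Bcl2l1: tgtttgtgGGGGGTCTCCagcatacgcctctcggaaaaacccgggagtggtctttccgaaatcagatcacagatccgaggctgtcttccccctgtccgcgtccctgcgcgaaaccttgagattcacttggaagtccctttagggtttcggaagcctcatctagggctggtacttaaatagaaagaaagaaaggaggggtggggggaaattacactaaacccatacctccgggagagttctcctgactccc
Mcl1: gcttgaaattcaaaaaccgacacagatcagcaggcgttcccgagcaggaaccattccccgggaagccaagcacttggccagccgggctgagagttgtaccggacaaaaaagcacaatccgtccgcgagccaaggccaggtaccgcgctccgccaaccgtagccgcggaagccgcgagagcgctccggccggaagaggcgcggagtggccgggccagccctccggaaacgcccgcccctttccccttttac
Bcl2l11: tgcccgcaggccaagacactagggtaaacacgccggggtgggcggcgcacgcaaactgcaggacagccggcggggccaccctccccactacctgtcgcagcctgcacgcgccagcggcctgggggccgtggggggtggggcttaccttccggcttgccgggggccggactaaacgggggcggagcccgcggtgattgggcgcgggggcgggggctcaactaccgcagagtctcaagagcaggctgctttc

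The Bcl2a1d and Bcl2a1b runs each held an AP-1 match and a CRE half-site. The Bcl2a1b run lies outside every member peak, so the values of the Bcl2a1b peaks do not cover it. The Bcl2l1 run held the NF-kB match, and the Mcl1 and Bcl2l11 runs held no capital. Motifs were searched on both strands in full windows of 300 bases, which add the first 50 bases after each start. Of the 15 listed windows of the members outside chromosome 18 and of the copies Bcl2a1a and Bcl2a1c, 7 held a CRE half-site: those of Bcl2, Mcl1, Bbc3 and the 4 Bcl2a1 copies. The half-site was in 20.8% of all 32851 mouse windows. AP-1 matched in 3 of the 15, the copies a, b and d, against 7.81% of all windows. NF-kB matched 1 window each of Bcl2l1 and Bbc3 (4.51% of all). The other listed windows of Bcl2l1, another of them within the same promoter peak, held no NF-kB match and are not printed. Also not printed are the windows of Bbc3, whose promoter did not rise with stimulation, and of Bcl2, whose promoter rose. The printed runs are thus a selection and do not tie a motif to the response. No window held a full CRE, TGACGTCA (1.79% of all), or a STAT match, TTCNNNGAA (8.3% of all). A full CRE contains the half-site on both strands. Windows of Bcl2a1d and Bcl2a1b were 96.5% identical over 256 aligned columns, and those of Bcl2a1a and Bcl2a1b 99.2% identical. Reads from these copies may be split between them or lost, so each Bcl2a1 value is uncertain as to its copy.

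At rest in untreated WT cells the most open promoter per kilobase of peak was that of Bcl2l11, and the least open that of Bcl2a1b. Bcl2l11 stood at 1300 ± 88.2 normalised counts per kb, Bcl2l1 at 886 ± 25.4, Bbc3 at 712 ± 84.9 and Mcl1 at 638 ± 39.7. These are SDs with n = 4, as below, except n = 3 for resting WT with PGE2. Bax followed at 422 ± 36.4, Bcl2 at 348 ± 49.9, Bcl2a1d at 339 ± 29.4, Pmaip1 at 176 ± 14.6 and Bcl2a1b at 59.3 ± 13.2. Library values overlapped between Bbc3 and Mcl1 and between Bcl2 and Bcl2a1d, and between no other neighbours in this order. The Bcl2a1b peak of class promoter lies 1.6 kb before the listed start and does not contain it.

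NK1.1 stimulation raised accessibility at most of these loci in untreated WT cells. Of the 46 peaks, 35 rose and 2 fell (limma, Benjamini-Hochberg adjusted p under 0.05 over all 38525 tested peaks), where 28.9% of all peaks rose and 27.4% fell (56.3% in either direction). Resting and stimulated libraries did not overlap at 34 of the 46 (52.7% of all peaks). The median log2 change was 0.75 for the members and −0.02 for all peaks. Every peak of Bcl2l1, Mcl1, Bcl2a1b and Bcl2a1d rose, as did 17 of 20 of Bcl2, 2 of 3 of Pmaip1 and 2 of 5 of Bcl2l11, while none of Bax and Bbc3 did. After quantile normalisation, which shifted the share of risers among all called peaks from 51.3% to 41.2%, 33 of the 46 rose and 4 fell.

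PGE2 given with stimulation lowered most of these loci in WT cells. Of 46 peaks, 29 were lower and 2 higher with PGE2 (limma), against 20.4% and 20.2% of all tested peaks. Libraries with and without PGE2 did not overlap at 30 of the 46 (39.4% of all peaks), and the members' median was −0.50 against −0.01. Lower peaks numbered 11 of 20 for Bcl2, all 5 for Bcl2l1, 3 of 4 for Mcl1, all 3 for Bcl2a1d, 1 of 2 for Bcl2a1b, all 3 for Pmaip1, 2 of 3 for Bbc3 and 1 of 5 for Bcl2l11. This comparison shares the untreated stimulated WT libraries with the one before, so the values of both are set side by side below. With PGE2 present, stimulation still raised 15 peaks and lowered 2 against resting WT cells with PGE2, where 12.7% of all peaks rose and 3.8% fell; the groups did not overlap at 23 of the 46 (27.8% of all peaks). After quantile normalisation 13 rose and 2 fell, with the share of risers among all called peaks at 66.9% in place of 76.9%. The test of the difference, the PGE2 effect in stimulated minus that in resting WT cells, was negative and called at 23 peaks and positive at 0 (limma), against 14.7% and 10.6% of all peaks.

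**Figure D1:**
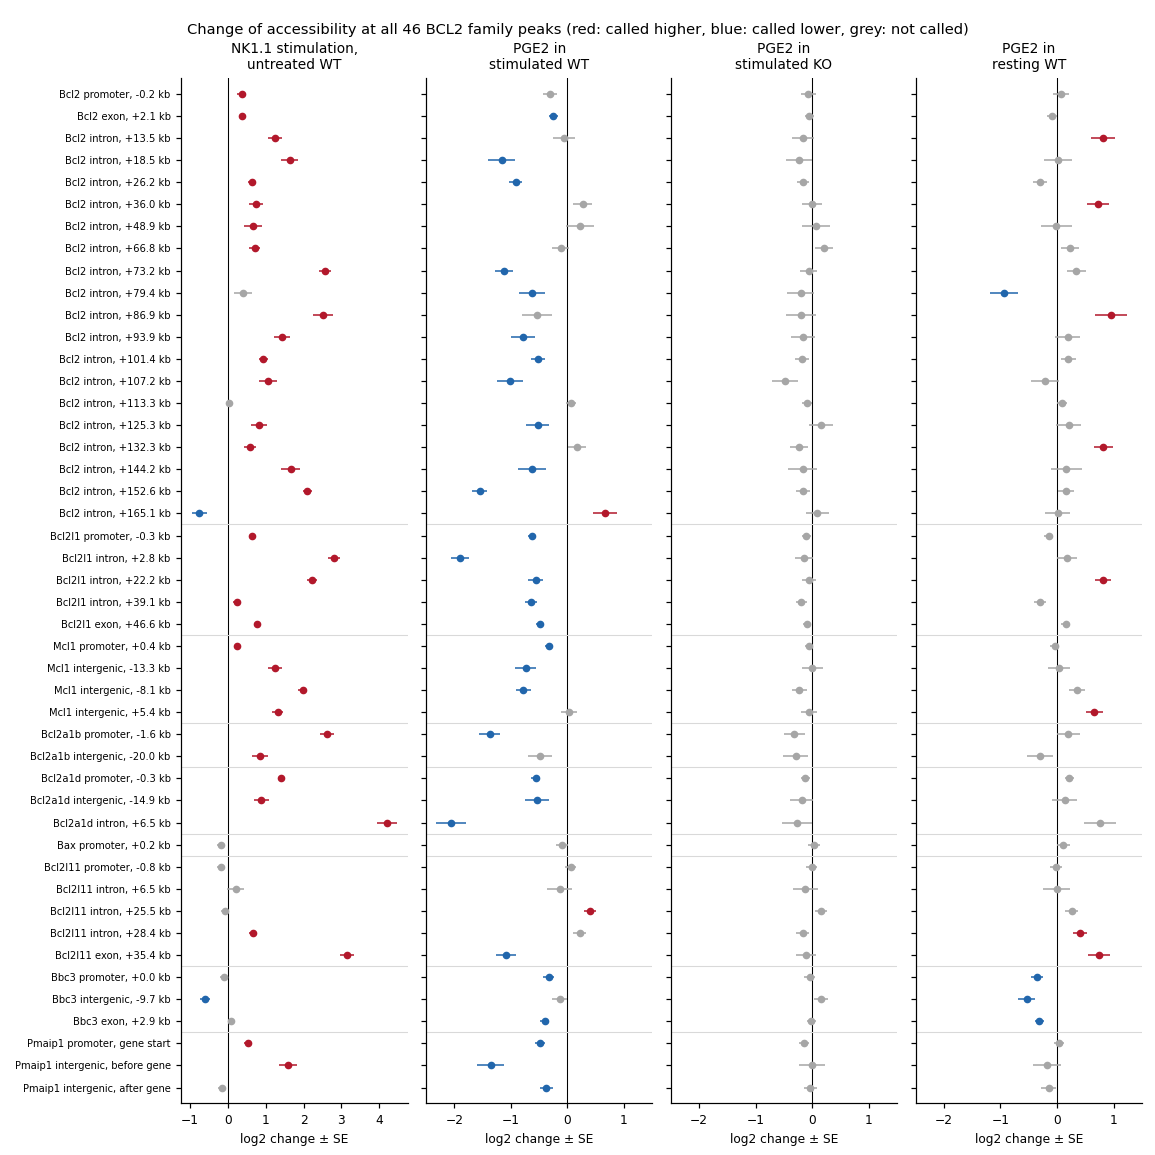
Log2 change ± SE (horizontal axes) of each of the 46 peaks (vertical axis, with the distance of the peak centre from the nearest listed start) in 4 comparisons, with the first panel on a wider scale than the other 3. Most points of the first panel are called higher (red), 29 of the second are called lower (blue), and no point of the KO panel is called (grey).

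Sums over marker peaks of other cell types overlapped between most of the groups. Sums without overlap were those of T cells at rest against stimulation and of myeloid cells at rest against stimulation with PGE2. Erythroid sums under stimulation with PGE2 also lay apart from both other groups. The 6 T cell marker peaks, from 4 of 8 listed genes, summed to 2097 to 2344 in resting and 2464 to 2824 in stimulated untreated WT libraries, and to 2214 to 2548 in stimulated WT with PGE2. The 8 B cell peaks, of 3 of 7 genes, summed to 883 to 936, 925 to 1054 and 869 to 971 in the same groups. The 10 myeloid peaks, of 5 of 8 genes, summed to 2407 to 2694, 2654 to 3080 and 2886 to 3151, and the 4 erythroid peaks, of 3 of 7 genes, to 706 to 802, 696 to 762 and 627 to 668. The 47 NK marker peaks summed to 24751 to 27861, 26238 to 30275 and 23866 to 28401. Their part in the changes of the BCL2 family was not tested.

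The largest log2 changes with stimulation and with PGE2 were at an A1 gene. A1 is a survival protein whose gene is known as an early target of activation signals in lymphocytes. All Bcl2a1d peaks, the promoter and distal ones included, have their centre within the gene model Gm10634. The intron peak of Bcl2a1d (chr9:88725055-88725719) measured 4.71, 7.78, 5.89 and 4.78 in untreated resting WT and 146, 92.2, 139.5 and 123 in stimulated WT. With PGE2 it measured 9.39, 11.9 and 9.75 at rest and 29.8, 26.8, 37.7 and 23.4 under stimulation. Stimulated libraries with PGE2 lay between the resting and the stimulated untreated ones, with no overlap. Stimulation changed the peak by 4.22 ± 0.26 (limma log2 change ± SE, adjusted p = 2.3e-16) and PGE2 under stimulation by −2.05 ± 0.26 (limma adjusted p = 6.43e-08). These are log2 changes of the normalised count + 1, which understate the change of a peak this low at rest. With PGE2 present, stimulation changed it by 1.41 ± 0.28 (limma adjusted p = 0.000337), but by 0.87 after quantile normalisation, where the call was lost (limma adjusted p = 0.0567).

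The Bcl2a1d promoter peak (chr9:88731430-88732844), which contains the listed start and the AP-1 match printed above, moved in the same direction by less. It measured 497, 522, 477 and 424 at rest, 1379, 1156, 1294 and 1249 under stimulation and 939.5, 871, 843 and 789 under stimulation with PGE2, and no library of 1 of these groups overlapped another. Group means were 480 ± 41.6, 1270 ± 92.9 and 861 ± 62.7. Stimulation changed it by 1.40 ± 0.08 (limma adjusted p = 7.33e-18), the smallest p among the 46 peaks, PGE2 under stimulation by −0.56 ± 0.08 (limma adjusted p = 2.74e-07), and stimulation with PGE2 present by 0.62 ± 0.08. The third Bcl2a1d peak, 14.9 kb before the start, changed by 0.88 with stimulation and by −0.54 with PGE2 in stimulated cells, both called.

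The promoter-class peak of Bcl2a1b (chr9:89197370-89198072) moved in the same directions from a lower level. Its values were 34.5, 36.0, 41.2 and 54.9 at rest, 225, 229, 276 and 318 under stimulation and 83.5, 102, 92.7 and 123 under stimulation with PGE2. All stimulated untreated libraries exceeded all those with PGE2, and these exceeded all resting ones. The changes were 2.63 ± 0.18 with stimulation (limma adjusted p = 6.17e-15) and −1.38 ± 0.18 with PGE2 (limma adjusted p = 1.52e-07). Its distal peak, 20 kb before the start, rose from 37.5 ± 5.99 to 68.5 ± 11.2 with stimulation. With PGE2 it measured 49.3 ± 13.2, a change of −0.49 ± 0.22 that missed the threshold (limma adjusted p = 0.071), although without replicate 4 of stimulated WT with PGE2 it was −0.64 and called (limma adjusted p = 0.0255).

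Bcl2l1, which encodes BCL-XL, rose at all 5 peaks with stimulation and was lower at all 5 with PGE2. The intron peak 2.8 kb past a listed start (chr2:152825190-152826273) showed it most: it measured 55.0, 54.4, 40.2 and 53.7 at rest, 378, 329, 468 and 285 when stimulated and 87.5, 98.2, 110.1 and 86.9 when stimulated with PGE2. The lowest stimulated untreated library was above the highest with PGE2, and the lowest with PGE2 was above all resting ones. The log2 change was 2.81 ± 0.16 with stimulation (limma adjusted p = 3.27e-17) and −1.90 ± 0.16 with PGE2 (limma adjusted p = 9.09e-12). The promoter peak (chr2:152830184-152831914), which spans the printed NF-kB match, measured 1591, 1541, 1492 and 1507 at rest, 2585, 2375, 2231 and 2386 under stimulation and 1433, 1620, 1552 and 1574 with PGE2 added. It changed by 0.64 ± 0.07 and −0.63 ± 0.07 (limma adjusted p = 1.39e-09 and 7.17e-09). Stimulated libraries with PGE2 overlapped untreated resting ones. Against resting cells with PGE2 the change was 0.16 ± 0.08 (limma adjusted p = 0.183), and after quantile normalisation 0.23 and called (limma adjusted p = 0.0029).

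The intron peak of Bcl2l1 22.2 kb past a listed start (chr2:152805761-152806881) differed from its neighbour in that PGE2 also raised it at rest. It measured 99.7, 69.0, 59.9 and 74.0 in untreated resting WT, 154, 128 and 116 with PGE2 at rest, 396, 309, 340 and 360.1 under stimulation and 232, 232, 271 and 217 with both. The 4 groups did not overlap, and PGE2 moved it up at rest (0.82 ± 0.14, limma adjusted p = 4.7e-05) and down under stimulation (−0.56 ± 0.13, limma adjusted p = 0.000762). The difference between both PGE2 effects was −1.38 ± 0.20 (limma adjusted p = 2.01e-06). The remaining Bcl2l1 peaks, an intron and an exon peak at 39.1 and 46.6 kb, rose by 0.23 and 0.76 with stimulation and were lower with PGE2, at −0.65 and −0.48.

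Mcl1, which encodes a short-lived survival protein, had larger log2 rises at its distal peaks than at its promoter. The promoter peak (chr3:95658203-95659952) measured 1171, 1181, 1055 and 1056 at rest, 1424, 1283, 1351 and 1246 under stimulation and 1054, 1120, 1002 and 1050 under stimulation with PGE2. Stimulated untreated libraries lay above both other groups, which overlapped. The changes were 0.25 ± 0.07 with stimulation and −0.33 ± 0.07 with PGE2 (limma adjusted p = 0.00269 and 0.000254). The peak 8.1 kb before the start (chr3:95650096-95651222) measured 97.4, 92.3, 91.3 and 109.9 at rest, 399, 308, 426 and 424 under stimulation and 252, 193, 254 and 207 with PGE2 added. It did not fall back to the resting range, and its changes were 1.97 ± 0.13 and −0.78 ± 0.13 (limma adjusted p = 1.28e-15 and 8.36e-06). The peak 13.3 kb before the start rose by 1.25 and was lower with PGE2 at −0.74.

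The last Mcl1 peak, 5.4 kb past the start and beyond the gene's end (chr3:95663753-95664503), did not follow the others under PGE2. It measured 69.9, 87.5, 118 and 75.2 in untreated resting WT and 139.9, 131 and 138 with PGE2 at rest, a rise of 0.66 ± 0.15 (limma adjusted p = 0.00167). Under stimulation it measured 188, 199, 232 and 247 without and 259.5, 219, 221 and 186 with PGE2, and these overlapped. Stimulation raised it by 1.32 ± 0.14, and PGE2 in stimulated cells gave 0.03 ± 0.14 (limma adjusted p = 0.888).

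**Figure D2:**
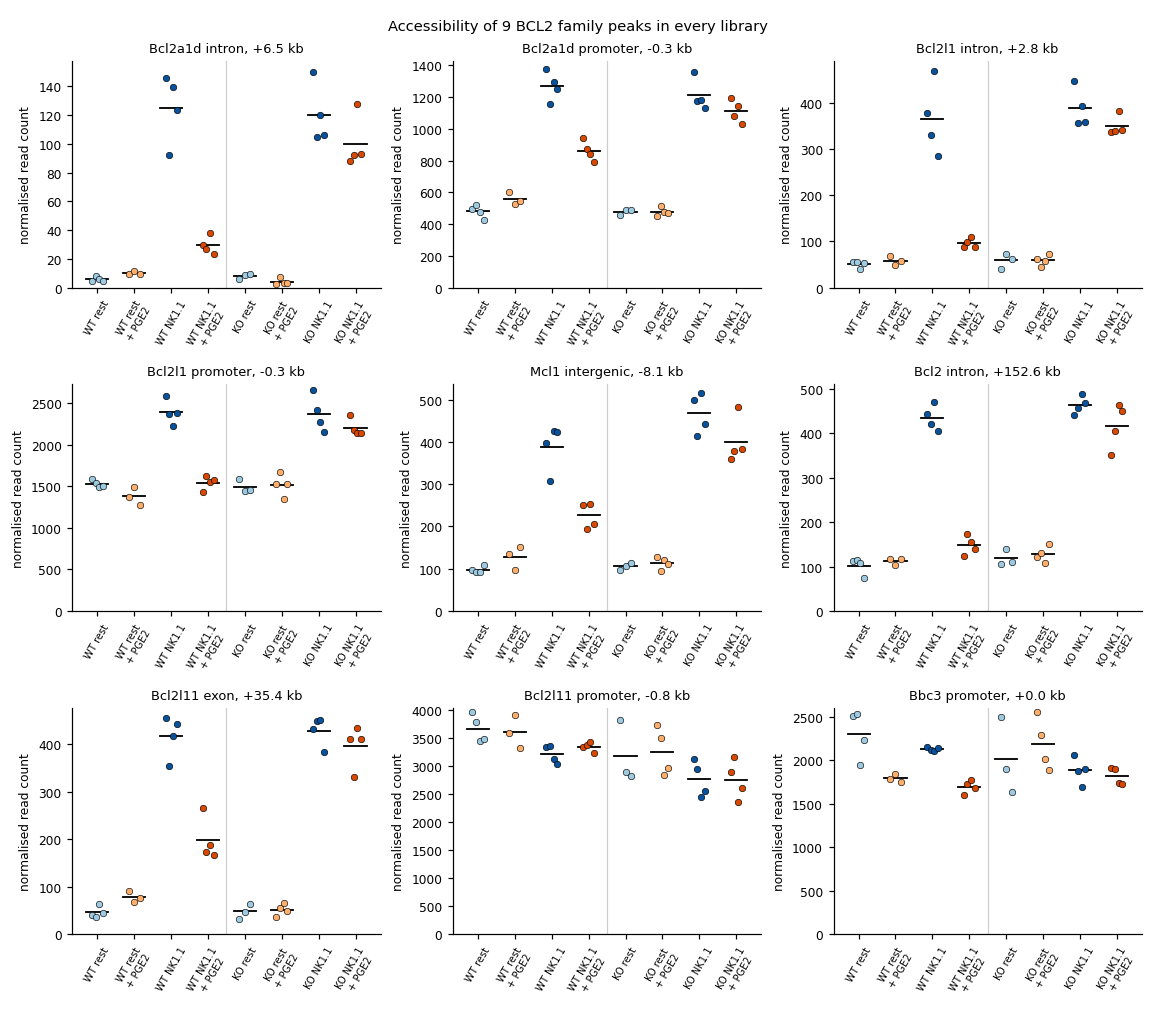
Normalised read count (vertical axes, from 0) of 9 peaks in every library of the 8 groups (horizontal axes); points are libraries and black lines are group means. In the first 7 panels, which end with the Bcl2l11 exon peak, every stimulated WT library with PGE2 lies below every stimulated untreated WT one; in the Bcl2l11 and Bbc3 promoter panels stimulation gave no called rise.

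Bcl2 held the most peaks, 18 of them in introns over a gene of which the farthest peak lies 165.1 kb from the start. Of the 20, 17 rose and 1 fell with stimulation. The promoter peak (chr1:106713619-106715309) measured 652, 593, 467 and 640.1 at rest, 731, 611, 872 and 807 when stimulated and 484, 605, 697 and 659 when stimulated with PGE2. These groups overlapped, and the rise with stimulation, 0.36 ± 0.13 (limma adjusted p = 0.0169), was no longer called without replicate 3 or 4 of stimulated untreated WT or replicate 3 of resting untreated WT, at 0.25 to 0.32 (limma adjusted p = 0.0514 to 0.109). The PGE2 change in stimulated cells, −0.31 ± 0.13, missed the threshold (limma adjusted p = 0.0561), and 5 of its alternatives called it, at −0.40 to −0.31.

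Several intron peaks of Bcl2 had larger changes than its promoter. The peak 152.6 kb inside the gene (chr1:106560936-106562506) measured 112, 114, 107 and 74.0 at rest, 443, 420.1, 471 and 404 under stimulation and 124, 174, 156 and 139 under stimulation with PGE2. All libraries with PGE2 lay below the stimulated untreated ones and above the resting ones. PGE2 changed it by −1.55 ± 0.13 (limma adjusted p = 3.06e-12), the smallest p of this comparison among the members. Stimulation had raised it by 2.10 ± 0.13 (limma adjusted p = 1e-16). Other intron peaks that rose by over 1.5 lay 73.2 kb (2.56), 86.9 kb (2.51), 144.2 kb (1.66) and 18.5 kb (1.63) inside the gene. With PGE2 under stimulation the same 4 peaks gave −1.13, −0.54, −0.63 and −1.16, called except at 86.9 kb. The peak at 165.1 kb went the other way: it averaged 60.4 ± 14.7 at rest, 35.3 ± 8.64 when stimulated and 56.8 ± 15.3 with PGE2 added, changes of −0.76 ± 0.20 and 0.66 ± 0.20, both called. Among peaks at 107.2 and 101.4 kb, which also lie within the gene model Gm37053, the rise was 1.06 and 0.94.

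**Figure D3:**
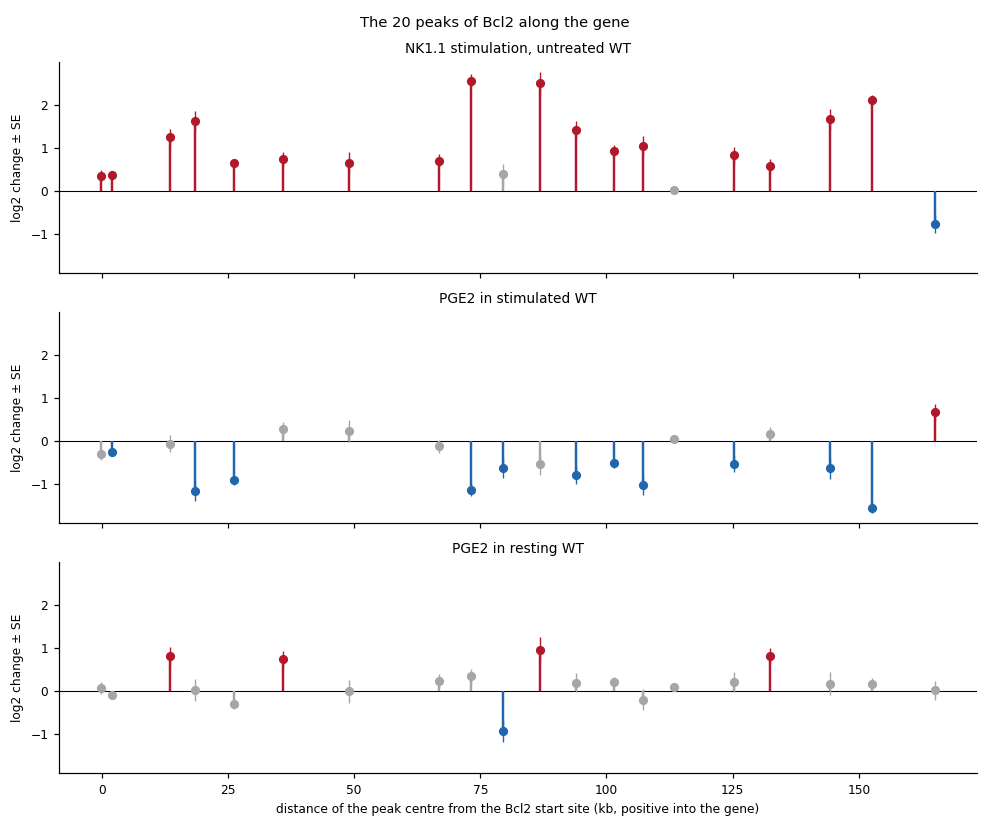
Log2 change ± SE (vertical axes) of the 20 Bcl2 peaks against the distance of their centre from the start site in kb (horizontal axis), for stimulation, PGE2 in stimulated and PGE2 in resting WT cells; red is called higher, blue called lower, grey not called. Rises with stimulation are spread over the gene, the fall with PGE2 is deepest at 152.6 kb, and the 4 peaks raised by PGE2 at rest lie at 13.5, 36, 86.9 and 132.3 kb.

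Bax, the pore-forming effector, had a single peak, at its promoter (chr7:45466101-45467202). It measured 449, 448, 524 and 437 at rest, 418, 457, 386 and 378 under stimulation and 349.9, 383, 414 and 385 under stimulation with PGE2. Resting and stimulated untreated libraries overlapped. Neither stimulation (−0.18 ± 0.11, limma adjusted p = 0.145) nor PGE2 in stimulated cells (−0.10 ± 0.11, limma adjusted p = 0.502) passed the test in WT. With PGE2 present, stimulation lowered it, with a change of −0.39 ± 0.11 (limma adjusted p = 0.0147), from 461, 574 and 473. That call was lost without replicate 1 of stimulated WT with PGE2 or replicate 3 of resting WT with PGE2, at −0.35 to −0.29 (limma adjusted p = 0.0548 to 0.147).

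Among the BH3-only genes, Bcl2l11 (BIM) changed far from its promoter. The promoter peak (chr2:128125419-128128225) held the highest counts of the family, 3951, 3783, 3438 and 3473 at rest, 3328, 3348, 3120 and 3025 under stimulation and 3332, 3368, 3417 and 3225 under stimulation with PGE2. Its stimulated untreated libraries lay below the resting ones without overlap, but the change of −0.19 ± 0.10 missed the threshold (limma adjusted p = 0.0956), and was called after quantile normalisation, with the replicate block and in a fit of both groups alone, at −0.19 to −0.13. PGE2 in stimulated cells gave 0.06 ± 0.10 (limma adjusted p = 0.674). The exon peak at the gene's end, 35.4 kb from the start (chr2:128162317-128163623), measured 41.6, 36.9, 64.8 and 45.4 at rest, 455, 355, 417 and 443 under stimulation and 265, 173, 188 and 167 with PGE2 added. It rose with stimulation by 3.15 ± 0.18 (limma adjusted p = 1.76e-17) and was lower with PGE2, at −1.09 ± 0.18 (limma adjusted p = 5.72e-06). The 3 groups were fully separate. An intron peak 28.4 kb from the start rose by 0.66 with stimulation, and another at 25.5 kb was higher with PGE2 in stimulated cells by 0.40.

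Bbc3 (PUMA), a BH3-only gene known as a p53 target, did not rise with stimulation at any of its 3 peaks. The promoter peak (chr7:16308857-16312095) measured 2509, 2536, 1950 and 2228 in untreated and 1789, 1841 and 1745 in PGE2-treated resting WT. Under stimulation it measured 2157, 2114, 2109 and 2140 untreated and 1596, 1728, 1768 and 1676 with PGE2. Libraries with PGE2 lay below their untreated counterparts in both states, with changes of −0.36 ± 0.10 at rest and −0.33 ± 0.10 under stimulation (limma adjusted p = 0.0135 and 0.00473). The exon peak 2.9 kb inside the gene (chr7:16312260-16314342) also fell, from 1722 ± 155 to 1386 ± 128 at rest and from 1822 ± 140 to 1373 ± 35 under stimulation (−0.31 ± 0.08 and −0.41 ± 0.08, limma adjusted p = 0.00774 and 5.92e-05). The peak 9.7 kb before the start (chr7:16299451-16300242) fell with PGE2 at rest, from 342, 383, 370.1 and 349 to 209.8, 247 and 294, and with stimulation, to 249, 228, 216 and 246 (−0.54 ± 0.14 and −0.62 ± 0.13, limma adjusted p = 0.00678 and 0.00013). The falls at rest rested on few libraries: the promoter's was lost without replicate 4 of resting WT with PGE2 or replicate 1 or 2 of resting untreated WT (−0.34 to −0.31), the exon's without that replicate 4 (−0.23), and the distal one without replicate 2 of resting WT with PGE2 (−0.42).

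Pmaip1 (NOXA) rose with stimulation at 2 of its 3 peaks, and all 3 were lower with PGE2 in stimulated cells. The promoter peak (chr18:66457945-66459276) measured 236, 207, 249 and 247 at rest, 319, 335, 349 and 342 under stimulation and 239, 219, 244 and 256 under stimulation with PGE2. The stimulated untreated libraries stood above both other groups, and the changes were 0.52 ± 0.08 and −0.49 ± 0.08 (limma adjusted p = 1.85e-06 and 1.1e-05). The low intergenic peak on the promoter side (chr18:66447635-66448240) measured 18.8, 17.5, 17.7 and 17.9 at rest, 60.7, 50.1, 60.2 and 53.8 under stimulation and 24.9, 14.5, 22.4 and 25.2 with PGE2 added, with changes of 1.59 ± 0.23 and −1.36 ± 0.23 (limma adjusted p = 3.22e-07 and 1.21e-05). The peak beyond the gene (chr18:66470366-66471936) gave −0.15 ± 0.12 with stimulation (limma adjusted p = 0.266) and was lower with PGE2, 124 ± 11.3 against 161 ± 20.5.

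PGE2 without stimulation moved fewer peaks of the family, in both directions. In resting WT cells 8 of 46 rose and 4 fell (limma), against 10.9% and 4.03% of all tested peaks. The risers were 4 intron peaks of Bcl2, the Bcl2l1 intron peak at 22.2 kb, the Mcl1 peak beyond the gene, and the exon peak and 28.4 kb intron peak of Bcl2l11; the 4 that fell were the 3 Bbc3 peaks and a Bcl2 intron peak at 79.4 kb (−0.93). No promoter peak passed the test for a rise, although without replicate 2 of resting untreated WT the Bcl2a1d promoter did, at 0.26 (limma adjusted p = 0.049) in place of 0.22 (limma adjusted p = 0.0778). Untreated and treated libraries did not overlap at 15 of the 46 (25.7% of all peaks). Without replicate 2 of resting WT with PGE2 the count was 7 in place of 12, 5 higher and 2 lower. Shares of all peaks are not given for fits that left out a library, here or below. A change in calls at the members alone therefore cannot be told from a change over all peaks. The Bcl2 peak at 132.3 kb (chr1:106581457-106582580) measured 102, 91.3, 74.6 and 64.5 untreated and 149, 143 and 144 with PGE2, groups without overlap, a change of 0.82 ± 0.17 (limma adjusted p = 0.000545). The others in Bcl2 rose by 0.96 (86.9 kb), 0.81 (13.5 kb) and 0.73 (36 kb). The Bcl2l11 exon peak rose from 41.6, 36.9, 64.8 and 45.4 to 91.8, 67.6 and 76.2 (0.74 ± 0.19, limma adjusted p = 0.00567), and was not called without replicate 2 of resting WT with PGE2 (0.63, limma adjusted p = 0.0543). All 8 risers were also among the 36 member peaks that rose with stimulation in KO cells (22.2% of the 36). The 2 comparisons have no common library. Over all peaks, 59.1% of the 4186 risers with PGE2 at rest also rose with stimulation in KO cells. The bases differ: stimulation in KO cells raised 78.3% of the 46 members and 28.1% of all tested peaks.

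In KO cells stimulation raised most peaks of the family too, while PGE2 moved no peak past the test. In untreated KO, 36 of 46 peaks rose and 2 fell with stimulation (limma), where 28.1% and 26.4% of all peaks did (54.5% in either direction). Groups did not overlap at 37 of the 46 (52% of all peaks). Without replicate 2 of untreated resting KO, 35 rose and 1 fell. After quantile normalisation 36 rose and 4 fell, with the share of risers among all called peaks at 40.7% in place of 51.5% and the median of all peaks shifted by −0.11. Of the 35 WT risers, 34 (97.1%) were among the 36 KO risers, or 94.4% of these; over all peaks the shares were 88% and 90.5%. The difference of the stimulation effect between genotypes was called at 0 of the 46 peaks by limma, edgeR and DESeq2. Limma called 0.00779% of all peaks (0.00519% higher in WT). At an unadjusted p under 0.05 limma had 2 of the 46, and 1452 of all 38525 tested peaks. Member differences ran from −0.74 to 0.58, with SEs of 0.10 to 0.39. The Bax promoter fell in the KO, with a change of −0.35 ± 0.11 (limma adjusted p = 0.00853), which was −0.24 and uncalled without replicate 2 of untreated resting KO (limma adjusted p = 0.105).

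PGE2 changed 0 of 46 member peaks in resting KO and 0 in stimulated KO (limma, edgeR and DESeq2), where 0% and 0.0026% of all peaks were called. At an unadjusted p under 0.05 limma had 3 and 1 of the 46, against 1520 and 1634 of all 38525 tested peaks. Libraries with and without PGE2 did not overlap at 3 of the 46 at rest (4.35% of all peaks) and at 2 under stimulation (1.95%). Log2 changes of the members lay between −0.93 and 0.51 at rest and between −0.48 and 0.21 under stimulation. Their median was 0.03 at rest and −0.11 under stimulation, against 0.01 and −0.01 for all peaks. The Bcl2l1 intron peak at 2.8 kb measured 446, 356, 392 and 359 in stimulated KO and 336, 338, 383 and 339.9 in stimulated KO with PGE2. The Bcl2 peak at 152.6 kb measured 440.2, 458, 489 and 469 without and 350, 406, 463 and 450.1 with PGE2. The Bcl2a1d intron peak measured 150.2, 105, 119.9 and 106 without and 88.2, 91.9, 128 and 92.6 with PGE2. In each the treated and untreated libraries overlapped as groups; in WT they did not. Same-numbered KO libraries, set as pairs on a hint from their correlations only, were lower with PGE2 in 4 of 4 pairs at the Bcl2l1 and Bcl2 peaks and in 3 of 4 at the Bcl2a1d peak. Over the members, 11 of 46 peaks were lower in every KO pair (9.31% of all peaks), among them the Bcl2l1, Bcl2a1d, Bcl2 and Pmaip1 promoters, and 32 of 46 in every WT pair (29.4%). With the replicate block the KO changes at the 3 peaks named were −0.15, −0.16 and −0.26 and not called by limma, so these data do not show a fall in KO and do not show its absence.

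The test of that difference, the PGE2 effect in stimulated WT minus that in stimulated KO, was negative and called at 18 of 46 peaks and positive at 0 (limma), against 9.8% and 10.2% of all peaks. It was −1.76 ± 0.23 at the Bcl2l1 intron peak (limma adjusted p = 6.62e-07), −1.39 ± 0.18 at the Bcl2 peak at 152.6 kb (limma adjusted p = 4.84e-07) and −1.79 ± 0.37 at the Bcl2a1d intron peak (limma adjusted p = 0.000543). Promoters differed by less: −1.06 at the promoter-class peak of Bcl2a1b, −0.53 ± 0.10 at Bcl2l1, −0.44 ± 0.11 at Bcl2a1d, −0.35 ± 0.12 at Pmaip1 and −0.27 ± 0.10 at Mcl1. Of 16 fits that left out 1 library, 8 lost the Pmaip1 call and 11 the Mcl1 call (limma adjusted p up to 0.0827 and 0.106). The Bax, Bcl2, Bbc3 and Bcl2l11 promoters did not pass this test, but that of Bbc3 was called when only the compared groups were fitted (−0.29, limma adjusted p = 0.0351). The Bcl2l1 intron peak at 22.2 kb narrowly missed it (−0.50 ± 0.19, limma adjusted p = 0.0529) and was called in 9 alternatives, edgeR, DESeq2 and the replicate block among them (−0.57 to −0.49, adjusted p = 0.0128 to 0.0446). At rest the PGE2 effect differed between genotypes at 6 peaks, higher in WT at 4 and lower at 2 (4.94% and 1.24% of all peaks, 6.18% together), and at 3 without replicate 3 of untreated resting KO, without replicate 3 of resting WT with PGE2, or when only the compared groups were fitted.

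**Figure D4:**
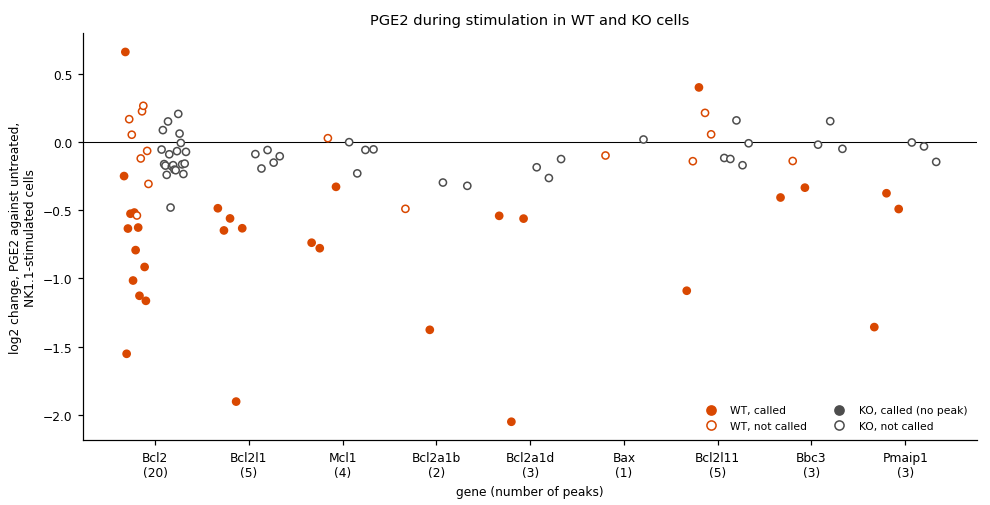
Log2 change with PGE2 in stimulated cells (vertical axis) of each member peak, by gene with its number of peaks (horizontal axis); orange is WT, grey is KO, and filled points are called by limma. WT points reach −2.05 at Bcl2a1d, and the KO points, none of them called, stay between −0.48 and 0.21.

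Untreated resting KO and WT cells differed at 0 of the 46 peaks by limma and by edgeR and at 1 by DESeq2. Limma called 1.73% of all peaks (1.09% higher in KO). At an unadjusted p under 0.05 limma had 6 of the 46, and 5990 of all 38525 tested peaks. The DESeq2 call, named after its value was seen, was the Bcl2 intron peak at 125.3 kb, at 0.76 (DESeq2 adjusted p = 0.0447). Without replicate 2 of untreated resting KO, which stood apart, 1 was called: the Bbc3 promoter at −0.38 (limma adjusted p = 0.0392). With it, that peak measured 2496, 1904 and 1635 in KO and 2509, 2536, 1950 and 2228 in WT, and the replicate 2 value is the highest of the 3. Stimulation in KO shares no library with PGE2 in stimulated WT. It raised 25 of the 29 peaks that were lower with PGE2 in stimulated WT. That was 86.2% of the 29 and 69.4% of the 36 KO risers, where over all peaks the shares were 78.3% and 56.8%. These shares start from different bases: stimulation in KO raised 78.3% of the 46 members and 28.1% of all tested peaks. The 4 lower peaks outside the KO risers were the promoter and exon peaks of Bbc3, the peak beyond Pmaip1, and the Bcl2 peak at 125.3 kb.

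Genes of the wider apoptosis pathway were counted from 3 lists. Over all tested peaks, 28.9% rose and 27.4% fell with stimulation in WT (median −0.02), and 20.2% were higher and 20.4% lower with PGE2 in stimulated WT. Of 25 peaks of 15 other BCL2 family genes, 5 rose and 11 fell with stimulation in WT (limma), with a median of −0.17, and 3 were higher and 3 lower with PGE2 in stimulated WT. The risers included the other A1 copies: the Bcl2a1c promoter (chr9:114329586-114330342) went from 21.1 ± 9.65 to 133 ± 9.17 and, with PGE2, to 46.3 ± 6.45, and the Bcl2a1a promoter (chr9:88955427-88957311) from 46.4 ± 7.58 to 128 ± 23 and 75.5 ± 13.4. The Bnip3 promoter (chr7:138909043-138910312), of a mitochondrial BH3-like protein known in mitophagy, fell from 1191 ± 11.2 to 752 ± 21.3 and stood at 1004 ± 56.9 with PGE2. An intron peak of Bcl2l13 (chr6:120873623-120874489) was 30.2 ± 6.81 in stimulated WT and 85.7 ± 8.17 with PGE2.

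Among 41 peaks of 19 caspase and inhibitor genes, 11 rose and 11 fell with stimulation, near the shares of all peaks (28.9% and 27.4%). With PGE2 in stimulated WT 7 were higher and 11 lower (20.2% and 20.4% of all peaks). The peaks named here are those with the smallest p and do not stand for their list. Peaks of Cflar, which encodes the caspase-8 inhibitor c-FLIP, gave the smallest p of the list for each comparison: an intron peak (chr1:58721978-58723055) from 119 ± 25.4 to 805 ± 75.9, with 366 ± 39.3 under PGE2, and an exon peak (chr1:58725621-58726423) from 23.3 ± 7.53 to 387 ± 27, with 75.5 ± 17.7. A distal peak of Cycs, the cytochrome c gene (chr6:50521285-50522161), fell from 335 ± 27.3 to 152 ± 15.2 and was 318 ± 27.2 with PGE2. An intron peak of Apaf1, the apoptosome scaffold (chr10:91076520-91077239), stood at 35.6 ± 7.42 in stimulated WT and 85 ± 18 with PGE2. Among 47 peaks of 11 upstream regulator genes, 18 rose and 9 fell with stimulation (28.9% and 27.4% of all peaks), and 14 were higher and 8 lower with PGE2 (20.2% and 20.4%). The Stat5a promoter (chr11:100858397-100862251), of a transcription factor downstream of IL-2 and IL-15, rose from 1052 ± 55.9 to 2004 ± 107 and was 1398 ± 129 with PGE2. A distal peak of Pim1 (chr17:29500323-29501482), a survival kinase, went from 386 ± 18.2 to 532 ± 26 and 298 ± 14.3. Foxo1, whose factor can drive Bcl2l11, held peaks of both kinds: an intron peak (chr3:52278171-52279000) rose by 2.70 ± 0.22, and another (chr3:52342869-52344197) fell by 0.99 ± 0.14, with stimulation.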

How the data were processed

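ATAC-seq was measured in 30 libraries. The submitters' processing notes name Trimmomatic 0.39, Bowtie2 2.4.1, MACS2 2.2.7.1, DESeq2 and the build mm10. The deposited signal is a normalised read count per peak. The sources used here do not give the treatment of duplicates, of multi-mapping reads or of the Tn5 offset. Whole reads were recovered (100% of values within 0.05 of a whole read). Genes and classes are those of the deposited table. The members and gene lists were chosen with earlier results of these data known.

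limma 3.58.1 (R 4.3.3, trend, empirical Bayes) was fitted to log2(value + 1) over all libraries, with 1 mean per group, on 38525 peaks with a mean of at least 10, which all 46 member peaks passed. Tests were two-sided, Benjamini-Hochberg adjusted within a comparison and called under 0.05. The fit was tested on simulated data. For each gene, the promoter peak with the highest mean and the peaks with the smallest p in PGE2 at rest, stimulation, and PGE2 under stimulation in WT were given in full, which made 22 peaks; list genes were named by the smallest p. Alternatives were a pseudocount of 8, no filter, a mean of at least 50, TMM and quantile scaling, edgeR 4.0.16 and DESeq2 1.42.0 on whole reads, a replicate block, the compared groups alone, and leaving out each library. Windows were aligned with Biopython 1.88. In PGE2 at rest in KO and PGE2 under stimulation in both genotypes every same-numbered pair correlated above 0.1 (0.12 to 0.33, 0.12 to 0.21 in WT and 0.22 to 0.53 in KO). That is only a hint, from the data and not the labels, that numbers pair libraries there.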

Additional observations from a re-analysis of the deposited data

Results flagged for a closer look

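Values of single libraries stood apart from the rest of their group in 9 of 132 groups of 4 libraries checked at the 22 peaks given in full, where chance gives about 1 in 20. In resting untreated WT these were the Bax promoter in replicate 3 (524, the others 437 to 449), the Bcl2 intron peak at 152.6 kb in replicate 4 (74.0, the others 107 to 114) and the Bcl2l1 intron peak at 2.8 kb in replicate 3 (40.2, the others 53.7 to 55.0). In stimulated KO with PGE2, replicate 3 was high at the Bcl2a1d intron peak (128, the others 88.2 to 92.6), the same Bcl2l1 peak (383, the others 336 to 339.9) and the Mcl1 peak beyond the gene (299.7, the others 214 to 225), and replicate 1 at the Bcl2l1 promoter (2365, the others 2145 to 2177). The distal Bbc3 peak was high in replicate 3 of resting KO with PGE2 (477, the others 388 to 399.9), and the peak beyond Pmaip1 in replicate 2 of stimulated WT with PGE2 (141, the others 117 to 119).

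The PGE2 effect differed between groups at 32 combinations of peak and comparison among the 22 peaks given in full (limma interaction, adjusted p under 0.05). These peaks were in part chosen by small p. Of all tested peaks, 6.18% were called for the genotype difference at rest, 20% for that under stimulation and 25.3% for the stimulation difference in WT. At rest, the effect in WT minus that in KO was 1.69 at the Bcl2a1d intron peak, 0.97 at the Bcl2l1 intron peak at 22.2 kb, 0.84 at the Bcl2 peak at 132.3 kb, 0.81 at the Mcl1 peak beyond the gene, −0.49 at the Bbc3 promoter and −0.38 at the Bbc3 exon peak. The Bcl2a1d value rests on a peak with 17 reads over the 4 libraries of resting KO with PGE2, and was 0.84 with a pseudocount of 8 and 1.25 after quantile normalisation, neither called. The Mcl1 value was 0.75 and uncalled without replicate 4 of untreated resting KO, and the Bbc3 and Bcl2 calls were each lost in 8 or 9 of 14 fits that left out 1 library.

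Under stimulation the same difference was −1.79 at the Bcl2a1d intron peak, −1.76 at the Bcl2l1 intron peak at 2.8 kb, −1.39 at the Bcl2 peak at 152.6 kb, −1.36 at the low Pmaip1 peak on the promoter side, −1.06 at the promoter-class peak of Bcl2a1b and −0.97 at the Bcl2l11 exon peak. It was −0.55 at the Mcl1 peak 8.1 kb before the start (lost in 8 of 16 fits that left out 1 library), −0.53, −0.44, −0.35 and −0.27 at the promoters of Bcl2l1, Bcl2a1d, Pmaip1 and Mcl1, and −0.39 at the Bbc3 exon peak.

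In WT, the PGE2 effect under stimulation minus that at rest was −2.81 at the Bcl2a1d intron peak, −2.08 and −1.38 at the Bcl2l1 intron peaks at 2.8 and 22.2 kb, −1.83 at the Bcl2l11 exon peak, −1.72 and −0.65 at the Bcl2 peaks at 152.6 and 132.3 kb, −1.58 at the promoter-class peak of Bcl2a1b and −1.18 at the low Pmaip1 peak. It was −1.13 and −0.63 at the Mcl1 peaks 8.1 kb before the start and beyond the gene, and −0.78, −0.53, −0.48 and −0.28 at the promoters of Bcl2a1d, Pmaip1, Bcl2l1 and Mcl1. The calls at the Mcl1 promoter, the Bcl2 peak at 132.3 kb and the Mcl1 peak beyond the gene were lost in 9, 8 and 3 of 15 fits that left out 1 library.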

How the results depend on the processing

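No called result changed sign under any alternative run; values near 0 that were not called did, as with PGE2 in stimulated WT at the Mcl1 peak beyond the gene (0.03, range −0.05 to 0.11). Of 264 results at the 22 peaks given in full, 101 were called and 79 of these were called in every alternative. Counts of called members stayed within 1.5 times except as follows. PGE2 in resting WT gave 12 (14.9% of all peaks), and 7 to 13 when 1 library was left out. KO against WT at rest gave 0 (665 of all peaks), 1 with DESeq2 (1058 of all peaks), and 0 to 1 when 1 library was left out. The genotype difference of the PGE2 effect at rest gave 6 (2381 of all peaks), 3 with only the compared groups fitted (2341 of all peaks), and 3 to 7 when 1 library was left out. The causes were not tested beyond fewer samples. With the replicate block the member counts, in the order PGE2 at rest in WT and KO, stimulation in WT and KO, PGE2 under stimulation in WT and KO, and stimulation under PGE2, were 16, 0, 38, 39, 32, 0 and 18. Over all 38525 tested peaks the block called 6694 (5740 in the main fit), 0, 22776, 22018, 16939, 1 and 7967 in the same order. For KO against WT, the genotype differences of PGE2 at rest, of PGE2 under stimulation and of stimulation, and the stimulation difference, the member counts were 0, 7, 20, 0 and 24. Over all peaks these were 1016, 2894, 9111, 3 and 11015. The block changed no member count by over 1.5 times, but called the Bcl2a1d promoter (0.25, limma adjusted p = 0.0183) and the Mcl1 peak 8.1 kb before the start as higher with PGE2 in resting WT. Over all comparisons 39 of 99 same-numbered pairs of libraries correlated above 0.1 (−0.02 to 0.53), and 26 of 30 libraries correlated best with their own number, a hint from the data only. Quantile normalisation also moved the share of risers among called peaks in KO against WT at rest from 63.2% to 52.1%. Depth limits the low peaks: the Bcl2a1d intron peak held 17 reads in resting KO with PGE2.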

Other observations

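Peaks of other genes followed a few of these loci closely over the 8 group means, given here as a description without a test, since each mean also carries the large effect of stimulation that many peaks share. For the Bcl2a1d promoter the 3 peaks of other genes with the highest Pearson r of log2 means were assigned to 5031425F14Rik (chr2:166398786-166400974, r = 0.9989), Crlf2 (chr5:109548306-109549262, r = 0.9988) and Nedd9 (chr13:41469368-41470128, r = 0.9987). The Nedd9 intron peak, of an adaptor protein in integrin signalling, averaged 15.9 in resting and 349.9 in stimulated untreated WT, 113 in stimulated WT with PGE2 and 254 in stimulated KO with PGE2. For the Bcl2 peak at 152.6 kb they were assigned to Grap (chr11:61646907-61647992, r = 0.9989), Syce1l (chr8:113655865-113656858, r = 0.9988) and Arhgap25 (chr6:87552072-87552807, r = 0.9987). The Grap peak, near the gene of a GRB2-related adaptor, averaged 24.4 in resting and 314.9 in stimulated untreated WT, 48 in stimulated WT with PGE2 and 316 in stimulated KO with PGE2.

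A distal peak of Huwe1, which encodes a ubiquitin ligase of MCL1 (chrX:151780008-151780959), was measured at 31.3 ± 7.67 in resting and 137 ± 14.5 in stimulated untreated WT and at 53.2 ± 9.57 in stimulated WT with PGE2. An intron peak of Birc6, which encodes an inhibitor of apoptosis protein (chr17:74550090-74550733), was measured at 12.4 ± 4.52, 141 ± 47.5 and 50.1 ± 13.9 in the same groups.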
